A study of Macaca mulatta with 8 samples.

Results

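The genes described here are the secreted ligands SEMA3A, SLIT1, SLIT2 and SLIT3, the co-receptors NRP1 and NRP2, and the receptors PLXNA2, PLXNA4, ROBO1 and ROBO2, which are 10 of the 26533 features counted in each library. They were found by gene symbol, and all 10 symbols were present. The set was chosen by measured values, namely the low UMI counts of SEMA3A and ROBO1 in cones of the mScarlet blebs of NHP2 against its uninjected areas. That contrast in cones is therefore given below as a description, with no test. A UMI (unique molecular identifier) marks 1 captured RNA molecule, and levels are given as CPM, the UMIs of a gene scaled to 1000000 UMIs of a cell class in 1 library.

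SEMA3A and the SLITs are secreted guidance cues that repel or attract growing axons. SEMA3A binds a neuropilin co-receptor, chiefly NRP1, and the signal is passed into the cell by an A-type plexin such as PLXNA2 or PLXNA4, whereas SLIT proteins bind the ROBO receptors. In the retina these genes are best known for guiding ganglion cell axons and for sorting the processes of inner neurons into layers, and neuropilins also serve as receptors of vascular growth factors.

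The study asked how the macaque retina responds to subretinal gene therapy with adeno-associated virus (AAV), and measured single retinal cells with 5′ single-cell RNA sequencing of retinal punches. There were 8 libraries in 4 groups of 2, always 1 from the right eye and 1 from the left. NHP1, a male aged 5 years, received AAV2-CAG-hRPE65, a human RPE65 gene under a ubiquitous promoter, in blebs of both eyes, and the libraries used here are labelled as uninjected areas. NHP2, a male aged 6 years, received AAV8-GRK1-hRPGR (codon-optimised human RPGR) and AAV8-GRK1-mScarlet (a red fluorescent reporter) in separate blebs of each eye, both under the photoreceptor promoter GRK1, and gave hRPGR bleb, mScarlet bleb and uninjected libraries from both eyes. By the study's methods, all eyes were vitrectomised and given triamcinolone, and the left eyes also had repeated intravitreal adalimumab, an antibody against TNF. Each group is therefore a pair of eyes of 1 animal, and all p-values below measure only the spread between libraries of that animal. The vectors, the transgene and the dose differ together between blebs, and animal, age and vector differ together between NHP1 and NHP2.

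The libraries held between 90634306 and 146519011 UMIs and between 9562 and 15080 cells after filtering, with a median of 4606 to 6036 UMIs per cell. Of 83192 cells that were clustered, 23.4% lay in clusters that could not be named (2.28% to 48.2% of a library, most in the NHP1 left eye), and the others fell into 11 classes. The levels below are over 10 of them, without the B and plasma cells. A library held 3739 to 8016 rods, 134 to 624 cones and 619 to 1098 bipolar cells. The amacrine class was cluster 25 alone, with 650 cells. The unnamed clusters 31, 32, 34, 35 and 36 (328, 386, 589, 78 and 552 cells) also scored highest for amacrine markers. They are not part of that class, so amacrine levels, ranks and differences below describe cluster 25 only. Cones carried their own 8 markers at a summed 10268 to 16373 CPM, and rods their own 9 markers at 32053 to 45779 CPM. Each of the 28 pairs of libraries shared between 135 and 255 cell barcodes. Of the libraries labelled uninjected, the NHP1 left eye held 32627 UMIs of the huRPE65 transgene and the NHP2 right eye 9748 of the coRPGR transgene, so each result that rests on them is also given without them where that changes it. RNA outside cells was read from barcodes with 100 to 1000 UMIs and is called free RNA below.

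SEMA3A and ROBO1 are the genes behind the choice of the members, and ROBO2 and PLXNA4 are those that passed a test below, so the 300 bases before their annotated starts are printed to show how unlike these windows are in base composition. Positions are those of the RefSeq annotation of Mmul_10, the build used for the files. SEMA3A lies at chr3:121826293-122173773 on the plus strand and its window at chr3:121825993-121826292. ROBO1 lies at chr2:192125380-193292671 on the plus strand, with its window at chr2:192125080-192125379, and ROBO2 on the minus strand at chr2:194219571-195993226, with its window at chr2:195993227-195993526. PLXNA4 lies on the minus strand at chr3:158450403-158900150, with its window at chr3:158900151-158900450. Each window is written from 5′ to 3′ on the strand of its gene, and capitals mark the GC box GGGCGG or its reverse complement.
SEMA3A: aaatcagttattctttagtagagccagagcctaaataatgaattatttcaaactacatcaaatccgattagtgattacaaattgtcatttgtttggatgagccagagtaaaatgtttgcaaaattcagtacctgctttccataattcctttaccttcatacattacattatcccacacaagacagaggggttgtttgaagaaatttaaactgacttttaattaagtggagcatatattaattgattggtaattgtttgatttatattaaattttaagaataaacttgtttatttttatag
ROBO1: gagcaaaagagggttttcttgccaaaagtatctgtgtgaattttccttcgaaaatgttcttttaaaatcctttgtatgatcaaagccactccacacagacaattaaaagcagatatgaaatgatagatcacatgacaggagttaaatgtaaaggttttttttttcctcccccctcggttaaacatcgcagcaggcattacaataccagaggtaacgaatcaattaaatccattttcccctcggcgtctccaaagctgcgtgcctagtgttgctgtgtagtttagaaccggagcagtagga
ROBO2: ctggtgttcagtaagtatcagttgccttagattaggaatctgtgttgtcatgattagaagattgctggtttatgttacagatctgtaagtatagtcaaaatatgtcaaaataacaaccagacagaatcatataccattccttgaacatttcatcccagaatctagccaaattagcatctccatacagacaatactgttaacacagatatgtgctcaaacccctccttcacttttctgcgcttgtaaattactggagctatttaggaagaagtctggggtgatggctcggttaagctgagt
PLXNA4: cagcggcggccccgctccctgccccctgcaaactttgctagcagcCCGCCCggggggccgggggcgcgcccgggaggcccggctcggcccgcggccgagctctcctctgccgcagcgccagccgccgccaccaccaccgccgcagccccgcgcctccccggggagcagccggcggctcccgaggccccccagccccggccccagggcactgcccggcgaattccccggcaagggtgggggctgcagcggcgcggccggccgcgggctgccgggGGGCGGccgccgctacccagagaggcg

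The windows of SEMA3A, ROBO1 and ROBO2 were poor in G and C, at 28.0%, 40.3% and 38.3%, while that of PLXNA4 reached 83.3%, against a median of 56.3% over 21100 RefSeq promoters of the same length. The other 6 members lay between 58.7% and 75.3%. The GC box was present in the window of PLXNA4 and absent from those of SEMA3A, ROBO1 and ROBO2, and 45.3% of all promoters held it on either strand. The photoreceptor homeobox motif TAATCC, held by 11.8% of all promoters, was in none of the 10 windows. The letters TATAAA, held by 2538 of the 21100, occurred at 2 places on the reverse strand of the SEMA3A window and in no other member. The 3 motifs do not overlap each other, ROBO1 has 4 and ROBO2 has 5 annotated start sites, and a match of letters is a description of the window only.

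The ligands were carried by different classes of retinal cell, and cones were never the highest. SEMA3A was highest in bipolar cells, the interneurons that take up the photoreceptor signal, at 145 ± 24.7 CPM (SD, n = 8 libraries), followed by rods at 129 ± 8.45 CPM and Müller glia at 78.5 ± 23.1 CPM (both n = 8). The bipolar level exceeded the rod level in 7 of 8 libraries, by 0.16 on the log2(CPM + 1) scale, which was within the spread between libraries, and rods were above Müller glia in 8 of 8. Amacrine cells at 57.2 ± 36.9 CPM and cones at 35.4 ± 18.1 CPM came lower (SD, n = 8), and from Müller glia down no class was above the next in every library. An unnamed cluster that scored highest for amacrine markers (cluster 36, 552 cells) held more SEMA3A than any named class, at 1020 CPM over all libraries.

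SLIT1 was highest in amacrine cells at 60.8 ± 38.4 CPM, followed by bipolar cells at 20.3 ± 5.72 CPM (SD, n = 8), and was low elsewhere, with 3 UMIs in all cones together. The unnamed clusters 31, 32, 34, 35 and 36, which scored highest for amacrine markers, held SLIT1 at 4.84, 8.80, 8.62, 157 and 46.5 CPM. SLIT2 was shared by 3 classes, amacrine cells at 548 ± 226 CPM (n = 8), bipolar cells at 467 ± 91.4 CPM (n = 8) and ganglion cells, the output neurons, at 338 ± 78.2 CPM (SD, n = 6). The amacrine and bipolar levels did not separate, while bipolar cells were above ganglion cells in 6 of 6 libraries. In the unnamed clusters 31, 32, 34, 35 and 36 SLIT2 was at 2.69, 1.57, 569, 102 and 59.0 CPM, so not all clusters with amacrine markers carried it. The next named class for SLIT2 was the horizontal cell at 6.86 ± 4.89 CPM. SLIT3 was highest in bipolar cells at 73.6 ± 36.7 CPM, above horizontal cells at 25.7 ± 28.5 CPM in 8 of 8 libraries (SD, n = 8). The unnamed cluster 51 (151 cells), which scored highest for pericyte and smooth muscle markers, held it at 82.7 CPM.

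The co-receptors were led by amacrine and myeloid cells. NRP1, the neuropilin through which SEMA3A acts, was highest in amacrine cells at 73.8 ± 25.0 CPM, followed by myeloid cells at 34.0 ± 32.9 CPM (SD, n = 8), a class whose spread came from the NHP1 left eye at 112 CPM. An unnamed cluster that also scored highest for amacrine markers (cluster 31, 328 cells) held NRP1 at 443 CPM over all libraries. Clusters 32, 34, 35 and 36, which did so too, held NRP1 at 1.26, 115, 197 and 88.2 CPM. Among the named classes NRP2 was highest in myeloid cells, the class of microglia and macrophages, at 99.3 ± 58.4 CPM, with Müller glia at 9.32 ± 3.69 CPM (SD, n = 8) and ganglion cells at 9.85 ± 9.64 CPM (SD, n = 6) next. The unnamed clusters 31, 32, 34, 35 and 36, which scored highest for amacrine markers, held NRP2 at 42.0, 30.2, 42.0, 96.7 and 13.8 CPM. In rods and cones both neuropilins were near 0, with 4 UMIs of each in all cones together, against free RNA at 0.820 to 8.0 CPM for NRP1 and 0.396 to 4.95 CPM for NRP2.

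The receptors divided among the inner neurons. Among the named classes PLXNA2 was highest in horizontal cells, the lateral interneurons of the outer retina, at 441 ± 55.5 CPM and varied little between libraries, from 386 to 554 CPM (n = 8). Amacrine cells, the inhibitory interneurons of the inner retina, came next at 163 ± 56.7 CPM (SD, n = 8). The unnamed cluster 31, already described for NRP1, held more PLXNA2, at 555 CPM over all libraries, and cluster 34 held 353 CPM. PLXNA4 stood at 81.3 ± 19.3 CPM in amacrine cells, 73.0 ± 30.0 CPM in bipolar cells (both n = 8) and 51.5 ± 14.1 CPM in ganglion cells (SD, n = 6), and the first pair were not separated, while the unnamed cluster 32 held it at 131 CPM. Clusters 31, 34, 35 and 36 held PLXNA4 at 44.7, 27.5, 111 and 37.1 CPM. ROBO1 was highest in amacrine cells at 583 ± 222 CPM, followed on the mean log2 scale by horizontal cells at 154 ± 45.4 CPM. The mean in cones was close to that, at 157 ± 228 CPM (SD, n = 8), but the cone level ran from 5.55 to 611 CPM, by ratio the widest range of any class with 8 libraries. ROBO2 was highest in bipolar cells at 2880 ± 260 CPM (SD, n = 8), followed by ganglion cells at 2207 ± 454 CPM (n = 6) and amacrine cells at 1135 ± 351 CPM (n = 8).

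Across the members, the highest named class by mean log2(CPM + 1) was above the next in every library with both classes for NRP2 (by 3.16 on the log2 scale), SLIT3 (1.95), ROBO1 (1.84), PLXNA2 (1.51) and ROBO2 (0.36, 6 of 6 libraries). For NRP1 (1.39 higher) and SLIT1 (1.31) it was above in 7 of 8 libraries. The differences of SEMA3A (0.16, 7 of 8), PLXNA4 (0.22, 6 of 8) and SLIT2 (0.12, 7 of 8) were smaller than their SD over libraries, as was that of ROBO2. The classes compared were picked for each gene from these same libraries, and the members were among the genes from which the classes were clustered, so these values are given as a description.

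**Figure D1:**
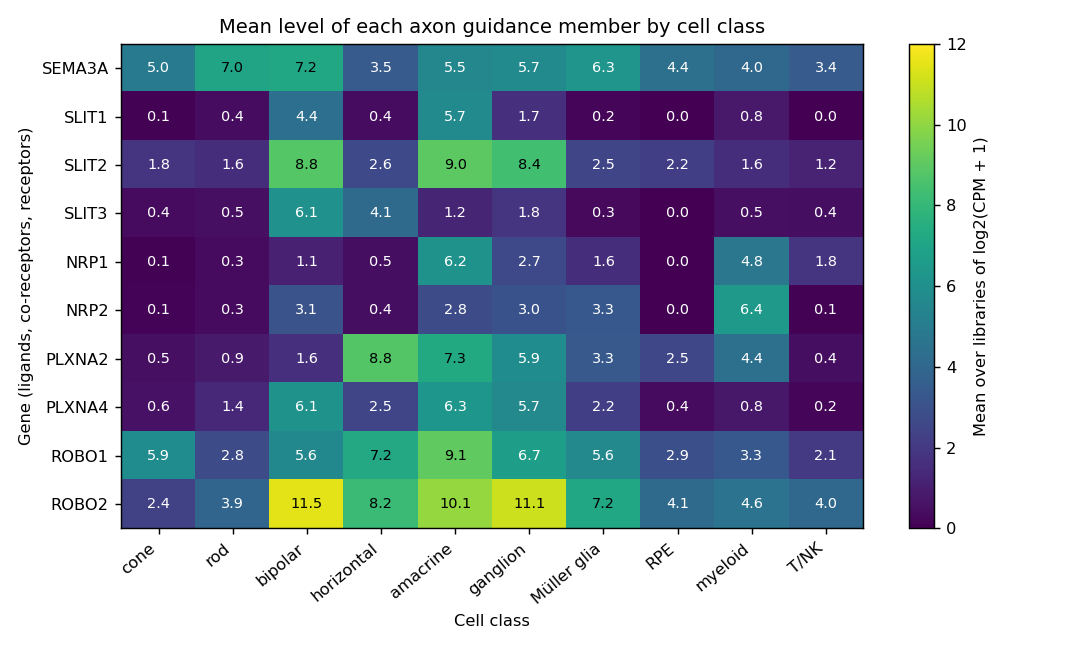
Mean over libraries of log2(CPM + 1) for the 10 members (rows, from ligands to receptors) in 10 cell classes (columns), using libraries with at least 20 cells of the class. ROBO2 and SLIT2 are brightest in bipolar, amacrine and ganglion cells, PLXNA2 in horizontal cells and NRP2 in myeloid cells, while the cone and rod columns are dark for NRP1, NRP2, SLIT1 and SLIT3.

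Bipolar cells were not uniform, and members differed in level between clusters of ON and of OFF type. How many of all genes do so was not computed. ON bipolar cells respond to light onset and express the channel TRPM1, OFF bipolar cells express the glutamate receptor GRIK1, and the 12 bipolar clusters were split after the data were seen by which of these 2 markers was higher. The GRIK1 side had 6 clusters with 2636 cells, among them cluster 4 in which the markers were nearly equal (293 CPM of GRIK1 and 244 CPM of TRPM1), and the TRPM1 side 6 clusters with 3918 cells. SEMA3A averaged 365 ± 55.1 CPM on the GRIK1 side and 27.2 ± 6.24 CPM on the TRPM1 side (SD, n = 8 libraries). PLXNA4 averaged 201 ± 74.4 CPM on the GRIK1 side against 3.25 ± 2.75 CPM, and NRP2 17.8 ± 4.45 CPM against 1.98 ± 0.815 CPM (SD, n = 8). The TRPM1 side carried more ROBO2, at 4205 ± 371 CPM against 407 ± 60.1 CPM, and nearly all of the SLIT1 and SLIT3. SLIT1 was at 30.6 ± 8.59 CPM against 1.02 ± 0.567 CPM, and SLIT3 at 112 ± 55.9 CPM against 1.10 ± 1.30 CPM (SD, n = 8). In the other members the ranges over libraries overlapped between the sides. SLIT2 averaged 746 ± 198 CPM on the GRIK1 side and 313 ± 44.7 CPM on the TRPM1 side, and ROBO1 62.3 ± 24.7 CPM and 46.2 ± 25.2 CPM (SD, n = 8), while NRP1 and PLXNA2 were below 8 CPM on both sides in every library. No test is given for these sides, since the members took part in the clustering.

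Members also differed between single clusters. SEMA3A was highest in cluster 23 of the GRIK1 side, at 1127 CPM over all libraries, and SLIT2 reached 5136 CPM in cluster 27, where it was among the 10 leading genes. PLXNA4 was highest in cluster 13 at 471 CPM, which also held most of the NRP2 at 64.5 CPM. On the TRPM1 side, ROBO2 was highest in cluster 0 at 7451 CPM, and cluster 15, the largest with 1741 cells, held SLIT3 at 226 CPM and SLIT1 at 48.0 CPM. Cluster 53, with 78 cells, had ROBO1 at 1218 CPM beside ROBO2 at 6518 CPM.

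**Figure D2:**
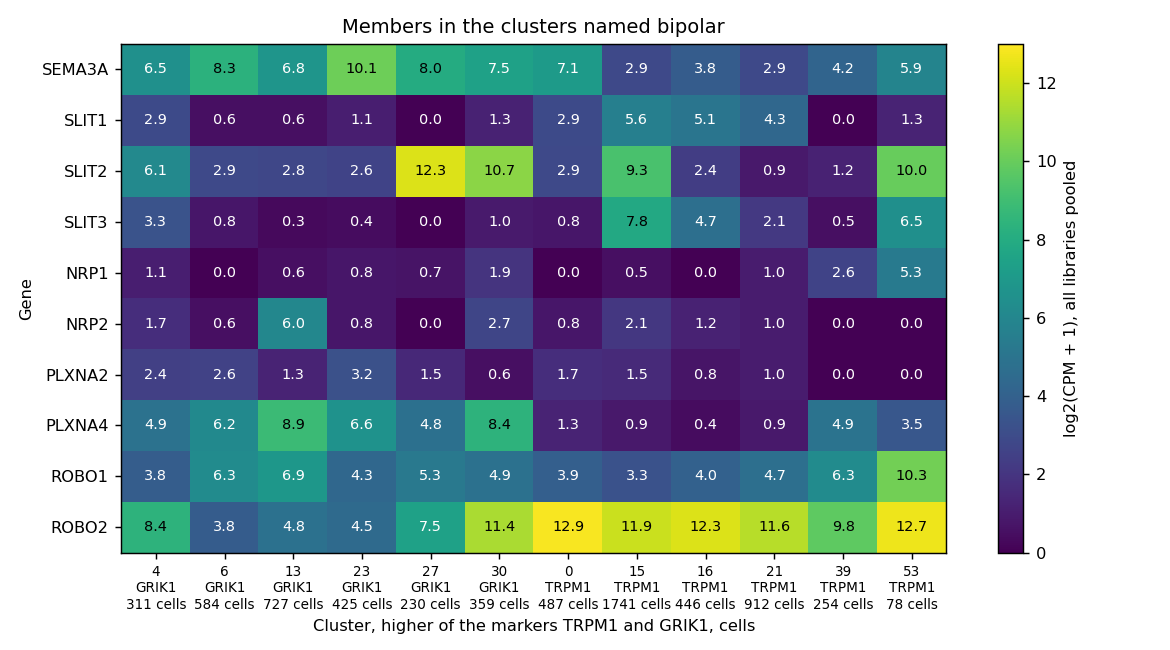
log2(CPM + 1) of the 10 members (rows) in the 12 bipolar clusters (columns), all libraries pooled, with the higher of the 2 type markers and the number of cells under each column. SEMA3A is brightest in cluster 23 and PLXNA4 in cluster 13, both GRIK1 columns, although SEMA3A in TRPM1 cluster 0 and PLXNA4 in TRPM1 cluster 39 exceed some GRIK1 columns. ROBO2 is bright in all TRPM1 columns and in cluster 30 of the GRIK1 side, and SLIT2 peaks in cluster 27.

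In cones, the photoreceptors of colour and daylight vision, only SEMA3A and ROBO1 were present above 12 CPM in any library. SEMA3A stood at 54.0 and 57.4 CPM in the uninjected areas of NHP2 (right and left eye), at 30.8 and 28.4 CPM in the hRPGR blebs, and at 28.1 and 24.8 CPM in the mScarlet blebs. Both kinds of bleb lay below the uninjected areas with no overlap, and the counting intervals of the 2 kinds of bleb overlapped. In NHP1 the eyes differed, with 5.73 CPM on the right and 54.2 CPM on the left. Free RNA held SEMA3A at 24.7 to 54.9 CPM, the same range as most of the cone values, and its part in the cone level was not tested. The log2 difference between mScarlet bleb and uninjected area was −1.17 ± 0.14 (SE), the value behind the choice of the gene.

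ROBO1, a receptor for SLIT proteins, had the widest range in cones. It stood at 422 and 611 CPM in NHP1, at 34.4 and 61.7 CPM in the uninjected areas of NHP2, at 58.9 and 54.7 CPM in the hRPGR blebs, and at 9.03 and 5.55 CPM in the mScarlet blebs. The mScarlet blebs were therefore lowest and NHP1 highest, with the hRPGR blebs inside the range of the uninjected areas. The log2 difference between mScarlet bleb and uninjected area was −2.74 ± 0.31 (SE), again the value behind the choice. Free RNA held ROBO1 at 22.3 to 89.0 CPM, above the cones of the mScarlet blebs in each of those libraries. The choice fixed how these 2 genes stand in this contrast, so no test of them is given, and over all genes tested in it 1.86% had an adjusted p under 0.05.

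The cones fell into 3 clusters. ROBO1 was lower in the mScarlet blebs than in the uninjected areas within clusters 47 and 28, while cluster 3 held too few UMIs to tell. These are the values behind the choice of the genes, split by cluster, so they are a description only. In cluster 47, which held 63.2% to 88.1% of the cones of every NHP2 library and 1 cell of NHP1, ROBO1 was at 28.4 and 53.9 CPM in the uninjected areas, 40.4 and 38.9 CPM in the hRPGR blebs, and 10.0 and 5.72 CPM in the mScarlet blebs. In cluster 28, present in both animals, it was at 820 and 1040 CPM in NHP1, 105 and 109 CPM in the uninjected areas of NHP2, 120 and 166 CPM in the hRPGR blebs, and 8.30 and 4.14 CPM in the mScarlet blebs. The mScarlet values in cluster 28 rest on 4 UMIs and 1 UMI, in 32 and 14 cells. SEMA3A in cluster 47 was at 50.3 and 48.6 CPM in the uninjected areas against 17.0 and 23.7 CPM in the hRPGR blebs and 22.2 and 24.3 CPM in the mScarlet blebs. In cluster 3 ROBO1 rested on 0 to 5 UMIs per NHP2 library, at 4.21 and 11.1 CPM uninjected, 0 and 5.42 CPM in the hRPGR blebs, and 2.79 and 0 CPM in the mScarlet blebs, so that the 2 kinds of bleb overlapped there. In cluster 3 the SEMA3A levels of NHP2 were closer together, with 84.2 and 86.9 CPM uninjected, 69.8 and 59.6 CPM in the hRPGR blebs, and 74.0 CPM in the right mScarlet bleb, while the left mScarlet bleb had 2 cells there and no SEMA3A UMI.

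Unnamed clusters that scored highest for cone markers held 0.0195% to 3.69% of the cells of each NHP2 library, and 0.273% and 16.3% of those of NHP1. With these cells counted as cones, SEMA3A was at 53.7 and 57.8 CPM in the uninjected areas of NHP2, 38.0 and 28.3 CPM in the hRPGR blebs and 28.5 and 26.0 CPM in the mScarlet blebs. ROBO1 was then at 34.3 and 58.6 CPM, 53.0 and 54.5 CPM, and 10.7 and 5.52 CPM in the same order. The recount added 99 and 2 cells in the mScarlet blebs (right and left) and 11 and 205 in the uninjected areas. It still holds the cones whose values entered the choice of the 2 genes, so it is a description.

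Markers of other cells in the cone class also differed between areas. The 9 rod markers summed to 800 to 1534 CPM in cones of the uninjected areas of NHP2, 598 to 1075 CPM in the hRPGR blebs and 248 to 784 CPM in the mScarlet blebs, with none of them at 0. Rods carry SEMA3A at more than 100 CPM, so these sums are given beside it, and their part in the SEMA3A difference was not tested. The 8 amacrine markers, from the class highest in ROBO1, summed to 460 to 535 CPM in the uninjected areas and 462 to 486 CPM in the mScarlet blebs, and up to 5 of the 8 were at 0 in a library. OPN1SW, the opsin of short-wave cones, was at 261 and 269 CPM uninjected, 358 and 161 CPM in the hRPGR blebs, and 335 and 26.4 CPM in the mScarlet blebs.

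**Figure D3:**
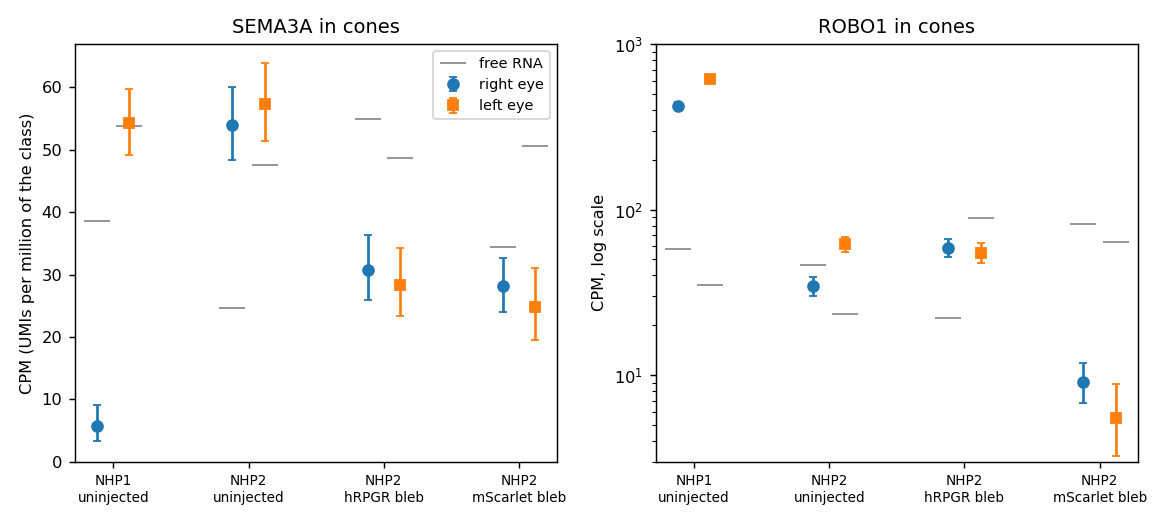
SEMA3A (left, CPM) and ROBO1 (right, CPM on a log axis) in cones of each library, with exact Poisson 95% intervals, which cover counting error only, and the level in free RNA of the same library as grey dashes. SEMA3A is at 54.0 and 57.4 CPM in the uninjected areas of NHP2 and between 24.8 and 30.8 CPM in all 4 blebs, while ROBO1 is at 422 and 611 CPM in NHP1 and at 9.03 and 5.55 CPM in the mScarlet blebs.

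The hRPGR blebs were set against the same uninjected libraries, whose cone values of SEMA3A and ROBO1 had entered the choice, so their differences here are also a description, with no test. SEMA3A was at a log2 difference of −0.93 ± 0.13 (SE), lower in both eyes. ROBO1 differed by 0.23 ± 0.25 (SE), and by −0.13 without the right uninjected library, the one with coRPGR UMIs. Over all genes 0.0262% passed in edgeR's quasi-likelihood test. Of the 2 members tested beside SEMA3A and ROBO1, ROBO2 and SLIT2, neither passed in edgeR or DESeq2. Of these, 1 (ROBO2) had an unadjusted edgeR p under 0.05, as had 744 of all 11468 genes. ROBO2 was at 1.33 and 3.10 CPM against 4.63 and 7.32 CPM uninjected, a handful of UMIs, with free RNA at 50.4 to 228 CPM. SLIT2 was at 0.516 to 7.64 CPM in cones, and the other 6 members were at or below 4.85 CPM in every library.

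Rods, the photoreceptors of dim light, held SEMA3A at 115 to 141 CPM in every library. It was at 141 and 127 CPM in NHP1, 115 and 130 CPM in the uninjected areas of NHP2, 133 and 120 CPM in the hRPGR blebs, and 127 and 137 CPM in the mScarlet blebs. All of these values were above the 24.7 to 54.9 CPM of free RNA, and the areas of NHP2 overlapped. The log2 difference was −0.0045 ± 0.086 (SE) for the mScarlet blebs, with an approximate 95% interval from −0.17 to 0.16, and −0.03 ± 0.09 for the hRPGR blebs, from −0.20 to 0.14. Unnamed clusters that scored highest for rod markers held from 4.99% to 31.7% of the cells of an NHP2 library, and the left uninjected area had the largest share. With these cells counted as rods, the range widened, with SEMA3A at 141 and 194 CPM in NHP1, 118 and 170 CPM in the uninjected areas of NHP2 (right and left), 186 and 129 CPM in the hRPGR blebs and 142 and 149 CPM in the mScarlet blebs, and the mScarlet difference was −0.03.

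Of the 8 members tested in rods, 0 passed for the mScarlet blebs, where 2.29% of all genes did, and 0 passed for the hRPGR blebs, where 0% did. DESeq2 called 0 members in either kind of bleb, where it called 12.6% of all genes for mScarlet and 78 genes for hRPGR. In edgeR 1 and 0 members had an unadjusted p under 0.05, as had 3782 and 716 of all 14469 genes. The exception at the unadjusted level was SLIT2, at 2.83 and 3.10 CPM in the mScarlet blebs against 0.996 and 1.94 CPM uninjected (edgeR adjusted p = 0.150), below its free RNA level of 7.77 to 35.2 CPM.

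In bipolar cells the mScarlet blebs had more PLXNA4, a plexin that passes on the SEMA3A signal. It was at 57.0 and 68.0 CPM in the uninjected areas of NHP2, 71.6 and 78.2 CPM in the hRPGR blebs, and 107 and 122 CPM in the mScarlet blebs, and at 28.8 and 51.7 CPM in NHP1. Every mScarlet library was above every other library, and free RNA was at 2.09 to 18.0 CPM. PLXNA4 rose by a log2 difference of 0.88 ± 0.12 (SE), or 1.83-fold (edgeR adjusted p = 0.0122), and was the only one of 9 members tested to pass, where 0.554% of all genes passed. The call was lost without any 1 of the 4 libraries compared. Over the fits with 1 library left out the log2 difference ran from 0.77 to 1.00. In the hRPGR blebs the difference was 0.27 ± 0.12 (SE), and 0 of 9 members passed in edgeR or DESeq2. At an unadjusted edgeR p under 0.05 there was 1 member, beside 450 of all 12999 genes. Of all genes, 0% passed in edgeR and 0.0769% in DESeq2.

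The higher PLXNA4 was seen on the GRIK1 side of the bipolar cells, where the gene is carried. Within those 6 clusters it was at 170 and 186 CPM in the uninjected areas, 204 and 208 CPM in the hRPGR blebs, and 279 and 327 CPM in the mScarlet blebs. The GRIK1 side held 284 and 297 cells beside 519 and 495 of the TRPM1 side in the uninjected areas, and 353 and 444 cells beside 484 and 654 in the mScarlet blebs. Of the 10 bipolar clusters with at least 20 cells in all 4 libraries, PLXNA4 was higher in the mScarlet blebs in 6, with no overlap in 4 (clusters 6, 13, 15 and 27), although cluster 15, of the TRPM1 side, held 4 UMIs against 0. In cluster 13 the mean was 605 CPM against 383 CPM, and in cluster 6 it was 107 CPM against 38.6 CPM. The 8 amacrine markers, from the class highest in PLXNA4, summed to 317 to 415 CPM in bipolar cells of the uninjected areas and 280 to 325 CPM in those of the mScarlet blebs. Other markers did not overlap between these libraries, with the 9 rod markers at 2116 to 3175 CPM uninjected and 1477 to 1520 CPM in the mScarlet blebs, the 8 cone markers at 77.5 to 245 and 47.6 to 63.2 CPM, and the 10 myeloid markers at 12.3 to 12.6 and 23.7 to 28.8 CPM. The markers of B and plasma cells, of T and NK cells, of astrocytes and of RPE did not overlap either. The part of all these markers in the PLXNA4 difference was not tested.

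Of the other members in bipolar cells, 3 had an unadjusted edgeR p under 0.05 in the mScarlet blebs and did not pass adjustment. Of all 12999 genes, 1251 had such a p. SLIT3 was at 61.6 and 74.3 CPM against 50.7 and 37.0 CPM uninjected (edgeR adjusted p = 0.276). ROBO1 was at 58.6 and 68.3 CPM against 22.2 and 43.9 CPM (edgeR adjusted p = 0.333), and SLIT2 at 559 and 562 CPM against 449 and 427 CPM (edgeR adjusted p = 0.399). All 3 were higher in both mScarlet libraries, by log2 differences of 0.63 ± 0.18, 0.94 ± 0.30 and 0.36 ± 0.13 (SE). With 1 library left out these ran from 0.41 to 0.89, from 0.55 to 1.51 and from 0.31 to 0.41. SEMA3A averaged higher on the GRIK1 side and ROBO2 on the TRPM1 side, with overlap between single clusters of the sides. Their log2 differences were −0.01 ± 0.17 and 0.02 ± 0.13 (SE), with approximate 95% intervals from −0.34 to 0.33 and from −0.24 to 0.27.

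In Müller glia, the supporting cells that span the retina, and in amacrine cells no member passed. Of 8 members tested in Müller glia, 0 passed in edgeR or DESeq2 in either kind of bleb, where 0.185% of all genes passed for mScarlet and 0.00771% for hRPGR, and 2 had an unadjusted p under 0.05 in the mScarlet blebs, as had 1827 of all 12965 genes, of which DESeq2 called 3.13%. These 2 were SEMA3A, at 109 and 111 CPM against 72.4 and 75.5 CPM uninjected (log2 difference 0.51 ± 0.13, SE, edgeR adjusted p = 0.167), and SLIT2, at 10.9 and 6.41 CPM against 3.77 and 3.45 CPM (edgeR adjusted p = 0.286). Markers of other cells also separated these Müller glia, with the 9 rod markers at 3626 to 4600 CPM uninjected and 1803 to 2186 CPM in the mScarlet blebs, the 8 cone markers at 32.9 to 225 and 16.9 to 21.4 CPM, and the 10 myeloid markers at 12.4 to 16.5 and 22.9 to 36.6 CPM. The 9 bipolar markers, from the class highest in SEMA3A, were at 284 to 299 and 334 to 335 CPM. The 9 markers of Müller glia were at 32544 to 38333 and 39995 to 40139 CPM. The RPE markers were at 421 to 438 and 536 to 610 CPM. The markers of B and plasma cells and of pericytes and smooth muscle did not overlap either. The part of all these markers in the differences was not tested. Of 8 members tested in amacrine cells, 0 passed in either tool or bleb, where 0% of all genes passed in edgeR for both blebs and DESeq2 called 17 genes for mScarlet and 0 for hRPGR. For mScarlet 3 members had an unadjusted p under 0.05 in edgeR, and for hRPGR 1, beside 525 and 173 of all 10618 genes.

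SEMA3A in amacrine cells was at 15.6 and 34.3 CPM uninjected, 56.3 and 121 CPM in the hRPGR blebs, and 66.5 and 57.1 CPM in the mScarlet blebs. The uninjected values rest on 54 UMIs together and lay below the free RNA of their libraries, at 24.7 and 47.6 CPM. The bleb values lay above the free RNA of theirs, at 34.4 to 54.9 CPM. All 4 blebs were above both uninjected areas (unadjusted p = 0.00586 and 0.0296 and adjusted p = 1.00 and 0.913 in edgeR for hRPGR and mScarlet). PLXNA4 in amacrine cells was at 53.4 and 47.4 CPM in the mScarlet blebs against 90.3 and 92.4 CPM uninjected, a log2 difference of −0.84 ± 0.24 (SE, edgeR adjusted p = 0.913), the opposite sign to bipolar cells. NRP1 in amacrine cells was at 41.4 and 46.2 CPM in the mScarlet blebs against 62.3 and 108 CPM uninjected, a log2 difference of −0.99 ± 0.29 (SE, edgeR adjusted p = 0.913). The right mScarlet library stood apart in this class. Its amacrine cells held their own 8 markers at a summed 2644 CPM, against 3644 and 4137 CPM uninjected and 3732 CPM in the left mScarlet bleb. Its 8 cone markers were at 1600 CPM and its 9 rod markers at 4741 CPM, against at most 158 and 2588 CPM in the uninjected areas. Without that library the log2 differences of PLXNA4 and NRP1 were −0.95 and −0.96. Over the fits with any 1 library left out, PLXNA4 ran from −0.95 to −0.70 and NRP1 from −1.25 to −0.50. The class held as few as 25 amacrine cells in a library, and the unnamed clusters that scored highest for amacrine markers were not counted in.

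**Figure D4:**
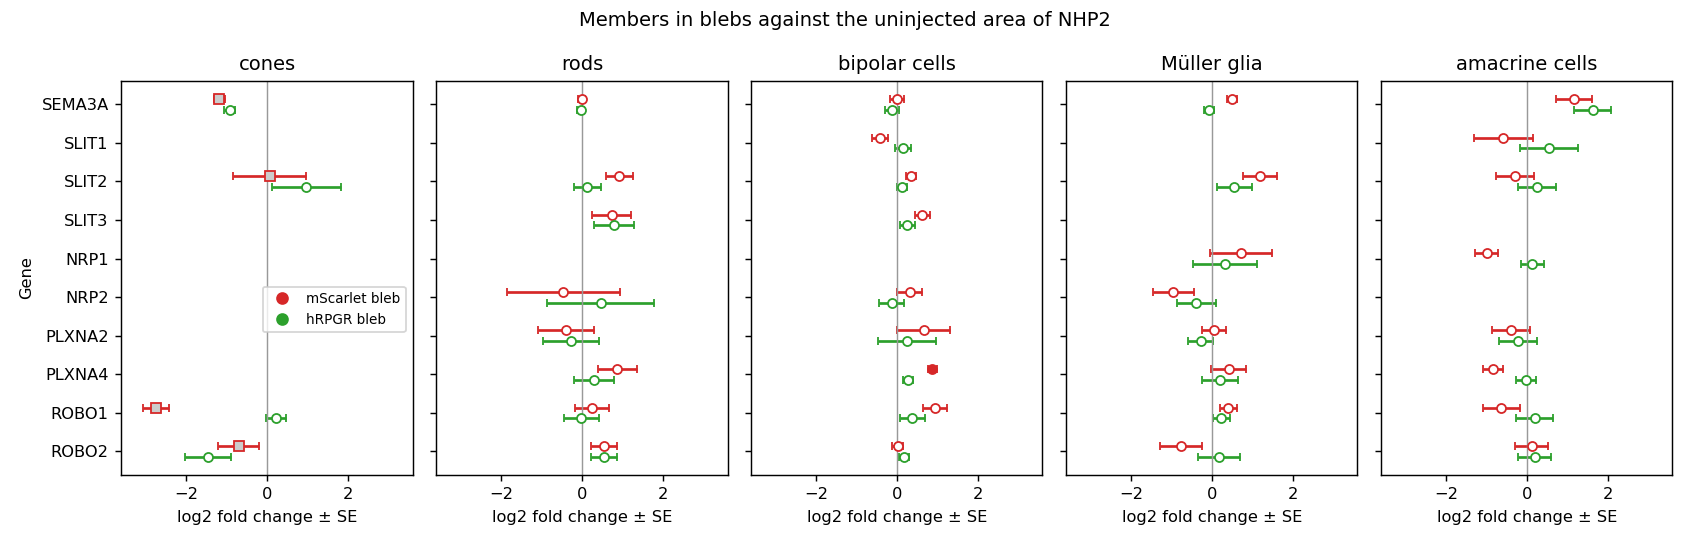
log2 fold change ± SE of each member in blebs against the uninjected area of NHP2, in 5 cell classes, for the mScarlet (red) and hRPGR (green) blebs. Filled circles have an edgeR adjusted p below 0.05, which only PLXNA4 in bipolar cells of the mScarlet blebs has, and grey squares in the cone panel are the contrast behind the choice of the members, shown without a test. The open green circles of SEMA3A and ROBO1 in the cone panel are likewise a description, since their uninjected values entered the choice.

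Between the uninjected areas of the animals, ROBO1 in cones was at 422 and 611 CPM in NHP1 and at 34.4 and 61.7 CPM in NHP2, a log2 difference of −3.47 ± 0.31 (SE), or 11.0-fold lower in NHP2. The NHP2 values had entered the choice of the gene, so this difference is a description. The values of SEMA3A had entered it likewise. Of the other 2 members in the fit, ROBO2 and SLIT2, neither passed in edgeR or DESeq2, where 1.71% of all genes passed in edgeR. Of these members 1 (SLIT2) had an unadjusted edgeR p under 0.05, as had 1617 of all 11297 genes. Within cluster 28 ROBO1 was at 105 and 109 CPM in NHP2 against 820 and 1040 CPM in NHP1, and within cluster 3 at 4.21 and 11.1 CPM (2 and 5 UMIs) against 364 and 431 CPM. The cone clusters differed in share between the animals, since cluster 3 held 84.3% and 67.3% of the NHP1 cones and 8.74% and 8.33% of the uninjected NHP2 cones. The opsin OPN1SW over all cones was alike, at 263 and 248 CPM in NHP1 and 261 and 269 CPM in the uninjected areas of NHP2. Whether cluster 3 holds the same type of cone in both animals was not tested, so its ROBO1 values may set unlike cones side by side. Leaving out the NHP1 left library, with its huRPE65 UMIs, moved SEMA3A to a log2 difference of 3.22 from 0.73 ± 0.66 (SE) with it, a value for which NHP1 is 1 library and which is given with no test.

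ROBO2 in rods was also lower in NHP2. It was at 90.9 and 68.1 CPM in NHP1 and at 4.24 and 7.36 CPM in the uninjected areas of NHP2, and the 4 blebs ranged from 6.52 to 11.6 CPM. ROBO2 fell by 3.77 on the log2 scale (SE 0.29, 13.6-fold lower, edgeR adjusted p = 0.0041), the only one of 8 members tested to pass, where 1.64% of all genes passed, and it passed in every alternative run, with log2 differences from −4.12 to −3.46. With the replicate block of eyes, 3 of the 8 members passed, ROBO1 (log2 difference −0.63) among them, where 10.2% of all genes passed. Free RNA held ROBO2 at 62.1 and 116 CPM in NHP1 and at 50.4 and 68.5 CPM in the uninjected areas of NHP2, so the rods of NHP1 were near it and those of NHP2 well below it. The 9 markers of bipolar cells, the class highest in ROBO2, summed in rods to 505 to 513 CPM in NHP1 and 448 to 522 CPM in NHP2 uninjected areas. The 8 markers of amacrine cells, which also carry ROBO2, did not overlap, at 287 to 312 CPM in NHP1 and 129 to 271 CPM in NHP2 uninjected areas. Their part in the difference was not tested. The rods of the animals lay largely in different clusters, those of NHP1 in clusters 2, 8, 9 and 33 (2276, 2120, 2087 and 3335 cells) and those of the uninjected NHP2 areas in clusters 5, 10 and 48 (2554, 3233 and 2640 cells), and the part of this in the difference was not tested. Only clusters 1 and 5 had at least 94 cells from the uninjected areas of each animal, with 323 and 377 rods of NHP1. There ROBO2 was at 43.3 and 35.5 CPM in NHP1 and at 6.97 and 8.13 CPM in NHP2, and the NHP2 value in cluster 1 rests on 2 UMIs. With the unnamed clusters that scored highest for rod markers counted as rods, ROBO2 was at 91.4 and 118 CPM in NHP1 and at 4.81 and 8.87 CPM in the uninjected areas of NHP2.

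Between the eyes of NHP2, with the area kept in the model, no member passed in cones (0 of 4, where 0.00872% of all genes passed) or in rods (0 of 8, where 0% passed), and DESeq2 also called 0. In each class 1 member had an unadjusted edgeR p under 0.05, beside 182 of all 11468 genes in cones and 165 of all 14469 in rods. ROBO2 in rods was higher in the left eye in 3 of 3 areas, at 7.36 against 4.24 CPM, 9.37 against 8.14 CPM and 11.6 against 6.52 CPM, a log2 difference of 0.59 ± 0.15 (SE, edgeR adjusted p = 1.00). It passed when the right hRPGR library was left out and when the left one was (edgeR adjusted p = 0.0036 and 0.0284), fits in which 2.93% and 1.57% of all genes passed as well, and its free RNA was also higher in the left eye in each area, at 68.5, 149 and 228 CPM against 50.4, 67.0 and 88.8 CPM. SLIT2 in cones had a log2 difference of −1.65 ± 0.64 (SE, edgeR adjusted p = 1.00), at under 6 CPM in all 6 libraries.

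NRP2 in myeloid cells, where it was highest, was at 45.2 and 52.1 CPM in the uninjected areas of NHP2, 176 and 80.4 CPM in the hRPGR blebs, and 131 and 190 CPM in the mScarlet blebs. All 4 blebs were above both uninjected areas, and above NHP1 at 52.2 and 67.3 CPM. How many of all genes separate in this way was not computed, and NRP2 in this class was picked from a scan of the members over the classes without a fit. Cell type markers within myeloid cells were not compared between areas. The class was made of clusters 26 and 37, and cluster 26 carried most of the NRP2, at 61.2 and 60.7 CPM in the uninjected areas of NHP2 (right and left), 219 and 92.2 CPM in the hRPGR blebs, 149 and 211 CPM in the mScarlet blebs, and 67.8 and 83.1 CPM in NHP1. In cluster 37 it was at 0 in both uninjected areas of NHP2 and at 17.4 to 53.0 CPM in the blebs, from 3 to 43 UMIs, with 18.3 (1 UMI) and 0 CPM in NHP1. The uninjected areas of NHP2 had only 49 and 37 cells there, with 144652 and 73445 UMIs in all, so a low level cannot be told from 0. Free RNA of NRP2 reached 4.95 CPM at most. No test was fitted for myeloid cells, which numbered from 31 to 490 cells per library.

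**Figure D5:**
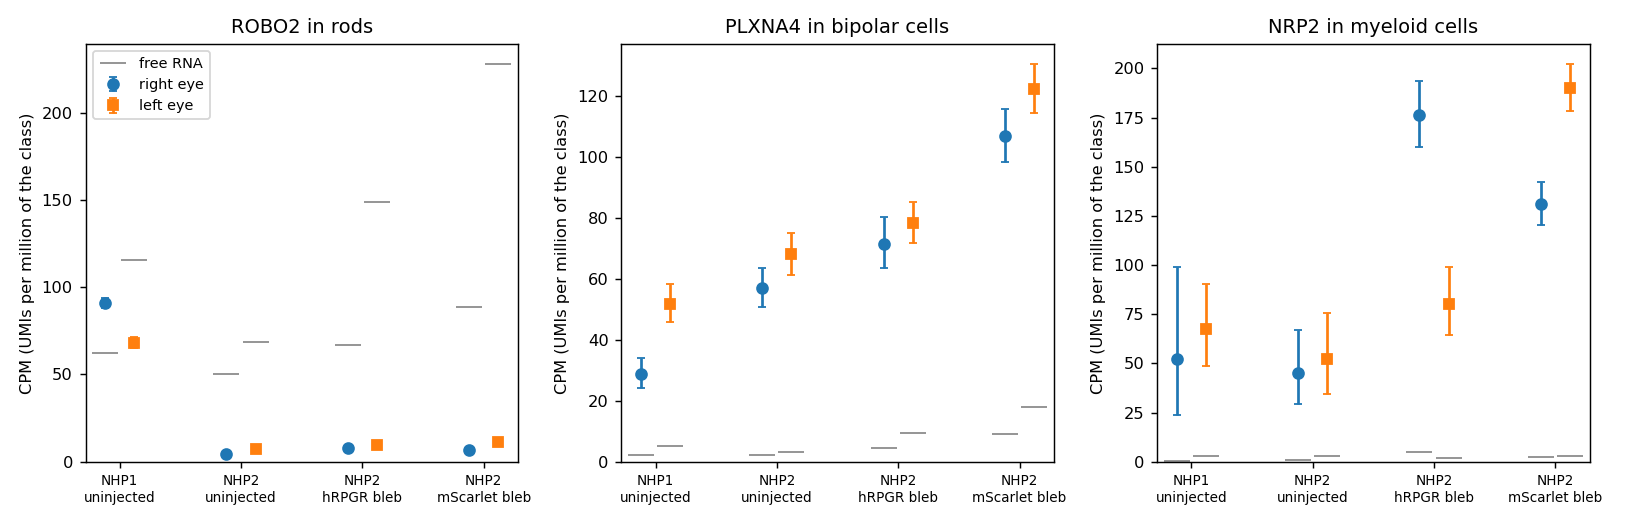
CPM of ROBO2 in rods, PLXNA4 in bipolar cells and NRP2 in myeloid cells in each library (circles, right eye, and squares, left eye), with exact Poisson 95% intervals and free RNA as grey dashes. ROBO2 in rods is at 90.9 and 68.1 CPM in NHP1 and at or below 11.6 CPM in NHP2, PLXNA4 is highest in the mScarlet blebs, and NRP2 is higher in the 4 blebs than in the uninjected areas of either animal.

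A wider list of 91 other axon guidance genes, of semaphorins, plexins, netrins, ephrins and their receptors, was followed beside the members, and 89 were found. In Müller glia of the mScarlet blebs 1 of 71 tested genes passed, against 0.185% of all genes, with a list median of 0.08 against −0.0022 over all genes, and 15 had an unadjusted p under 0.05, beside 1827 of all 12965 genes. It was EPHA4, an ephrin receptor known for the mapping of axons, at 45.9 and 49.7 CPM against 17.8 and 18.5 CPM uninjected (log2 difference 1.33, edgeR adjusted p = 0.0333). The markers given above for Müller glia also differed between these libraries. With 1 library left out the log2 difference of EPHA4 ran from 1.25 to 1.40. The EPHA4 call was lost with the eye as a block (edgeR adjusted p = 0.0862), with only the groups compared in the fit (0.0805) and in 5 of 6 fits with 1 library left out, up to an edgeR adjusted p of 0.189 without the left mScarlet library. With 1 library left out the count of the list ran from 0 to 5, where up to 2.52% of all genes passed. DESeq2 called 7 of the list, where it called 3.13% of all genes. In cones of the mScarlet blebs EPHA4 was at 20.4 and 25.4 CPM against 48.4 and 48.0 CPM, and EPHA5 at 61.5 and 59.4 CPM against 31.6 and 18.3 CPM, which is a description.

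In the same list 0 of 68 genes passed in rods and 0 of 72 in bipolar cells of the mScarlet blebs with edgeR, where 2.29% and 0.554% of all genes passed. DESeq2 called 5 and 0 of the list, where it called 12.6% and 0.723% of all genes. In rods 17 of the 68 had an unadjusted p under 0.05, a share near that of all genes given above. In bipolar cells 14 of the 72 had an unadjusted p under 0.05, beside 1251 of all 12999 genes. In cones of NHP2 against NHP1, 2 of 46 passed, where 1.71% of all genes did. EPHA7, another ephrin receptor, was at 0.479 and 1.22 CPM against 28.3 and 52.1 CPM (log2 difference −5.62, edgeR adjusted p = 0.0038). PLXND1, a vascular plexin, was at 0.799 and 1.05 CPM against 4.77 and 7.12 CPM (−2.74, edgeR adjusted p = 0.0406). The PLXND1 call was lost without the NHP1 left library and without either NHP2 library, with an edgeR adjusted p of up to 0.384.

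The genes whose mean level followed that of a member most closely over the 10 classes were read from Pearson's r over 13639 genes, as a description in which all points share the same libraries and clusters. SLIT2 was followed by HMGCLL1 (r = 0.993) and ABCC8 (r = 0.988), and SLIT1 by ZFPM2 (r = 0.991) and MUC3A (r = 0.983). PLXNA4 was followed by FIGN (r = 0.988) and YPEL4 (r = 0.988), NRP1 by ADAMTS10 (r = 0.984) and HRH1 (r = 0.963), and NRP2 by KCNQ1 (r = 0.967) and PLXDC2 (r = 0.956). ROBO2 was followed by SLC8A3 (r = 0.979) and NOVA1 (r = 0.975), ROBO1 by C11H12orf42 (r = 0.968) and ZNF512B (r = 0.964), and SLIT3 by C7 (r = 0.964) and CDH17 (r = 0.948). The members with the least close followers were SEMA3A, with GIN1 (r = 0.944) and NHLRC1 (r = 0.938), and PLXNA2, with BCL11A (r = 0.953) and CREB5 (r = 0.930).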

How the data were processed

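Single cells of retinal punches from 8 areas of 4 eyes of 2 macaques were measured with 5′ single-cell RNA sequencing. The authors deposited unnormalized UMI counts per gene and barcode, all barcodes included, made with Cell Ranger 8.0.1 (per the file headers) on a Mmul_10 reference extended with the transgenes. The free-RNA correction, doublet calls and batch integration of the study's own analysis are not in these counts, so cells, doublets and classes were rebuilt here.

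A barcode counted as a cell from 1500 UMIs and 300 genes upwards, if no more than 20% of its UMIs were mitochondrial. The highest doublet scores of Scrublet (0.8% per 1000 cells, 8604 of 91796 cells, or 9.37%) were removed. The remaining cells were clustered with scanpy 1.11.5 (Python 3.11.15) on 3000 variable genes, 40 principal components and 15 neighbours with the Leiden method at resolution 2, with no batch integration, into 62 clusters. Naming a cluster took 3 or more raised markers of a class and a marker score 1.5 times or more above the second class. Its 10 leading genes could not hold more markers of another class than of its own, and had to hold at least 1 of its own unless the score ratio reached 2. This rule was set after the clusters were seen, and it left 18 clusters unnamed. UMIs were summed per library and class, for libraries with at least 20 cells of the class.

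The sums were tested over all genes with edgeR 4.0.16 in R 4.3.3 (TMM factors, filterByExpr, quasi-likelihood F test, Benjamini-Hochberg adjustment over all genes tested, threshold 0.05), with the 6 NHP2 libraries in 1 fit for the blebs. The SE is the log2 fold change divided by the root of F, and approximate intervals are normal 95% intervals. DESeq2 1.42.0, other size factors, no filter, deeper cells (at least 3000 UMIs), the eye as a block, the groups compared alone and leaving out each library were run as alternatives. Where that left 1 library in a group, it was assumed to vary like the others of the fit. Exact permutation tests took every pattern of signs of the library differences, Poisson intervals used scipy 1.17.1, and log2 levels used a pseudocount of 1. Intervals of single levels are exact Poisson 95% intervals and cover counting error only. The scripts were tested on simulated data.

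The members and gene lists were chosen with earlier results of these data known. SEMA3A and ROBO1 are not counted among the members tested in cones of the hRPGR blebs or between the animals, where values that entered their choice are compared. All 10 members are named, as are the called genes of the wider list with the 5 lowest p per comparison, and the 2 genes most like each member with at least 10 CPM in their highest class. Libraries with the same number within NHP2 come from the same eye, which is where the pairing comes from. Their deviations from the group means had correlations over genes from −0.22 to 0.0051 in cones, −0.39 to 0.34 in rods, −0.18 to 0.05 in bipolar cells, −0.02 to 0.07 in Müller glia and −0.14 to −0.04 in amacrine cells.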

Additional observations from a re-analysis of the deposited data

Results flagged for a closer look

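In the pairs of cell classes below, both libraries of a kind of bleb lay on opposite sides of both uninjected areas of NHP2. Members at a low CPM in a class were left out. How often this holds over all genes was not computed, and none of these differences between classes was tested. Values are differences of mean log2(CPM + 1). ROBO1 in the mScarlet blebs was higher by 1.00 in bipolar cells and by 0.51 in Müller glia and lower in cones (−2.54), so that the classes differed by 3.54 and 3.05. SEMA3A in the same blebs was higher by 0.57 in Müller glia and by 1.37 in amacrine cells and lower in cones (−1.05), a difference between classes of 1.62 and 2.42. PLXNA4 was higher in bipolar cells by 0.87 and lower in amacrine cells (−0.85), which differed by 1.71. In the hRPGR blebs SEMA3A was higher by 1.79 in amacrine cells and lower in cones (−0.89), a difference of 2.68. In the cone contrasts of both kinds of bleb these differences contain values that entered the choice of the genes.

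NRP2 in myeloid cells, a class outside the fitted comparisons, averaged 160 CPM in the mScarlet blebs against 48.7 CPM in the uninjected areas of NHP2. It was picked by a scan of the members over such classes, and how many of all genes would be picked likewise was not computed.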

How the results depend on the processing

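Of 676 alternative values over all results, 584 kept their direction and side of the threshold or stayed within the spread of replicates. Another 56 moved further, 21 lost the threshold, 8 gained it and 7 reversed. The tally holds values behind the choice of the members, class orders picked from these libraries, and counts of 0 called members that stayed at 0. It is therefore no measure of how firm the results are. Among the values that reversed, SEMA3A in rods of the mScarlet blebs, at −0.0045 as reported, went to 6.1e-05 with deeper cells and 0.11 without TMM factors, and ran from −0.036 to 0.026 with 1 library left out. SEMA3A in rods between the animals ran from −0.22 to 0.044 and ROBO1 in cones of the hRPGR blebs from −0.13 to 0.70 with 1 library left out. PLXNA4 averaged 0.12 higher in bipolar than in amacrine cells over the NHP2 libraries (SD of the difference 0.83), but was higher there in only 2 of these 6 libraries. The number of genes whose highest class was above the next at an exact adjusted p under 0.05 went from 7 to 0 with those 6 libraries, and no weight is given to this test, whose classes were picked from the same libraries. The number of members called moved from 0 to 1 without a filter on low counts in cones of the hRPGR blebs (1.58% of all genes; SEMA3A and ROBO1 not counted here or between the animals in cones), from 1 to 3 without the filter in bipolar cells of the mScarlet blebs (2.47%), and from 0 to 1 in amacrine cells of the hRPGR blebs (0.15%). Between the animals it moved from 0 to 1 without the filter (5.22% of all genes) and to 1 with the replicate block in cones (7.33%), which added SLIT2 (−1.91, edgeR adjusted p = 0.0193), and from 1 to 3 with the block in rods (10.2%). With 1 library left out these counts ran from 0 to 1 in bipolar cells of the mScarlet blebs and rods between the eyes, and stayed at 0 in cones of the hRPGR blebs and between the animals. The block changed no other call of a member. The log2 difference of SEMA3A in cones of the mScarlet blebs was −1.06 without TMM factors and −1.32 to −1.07 with 1 library left out, and that of ROBO1 −3.25 to −2.28. Over all genes, edgeR and DESeq2 called 213 and 328 in cones of the mScarlet blebs and 3 and 42 in those of the hRPGR blebs. They called 331 and 1823 and 0 and 78 in rods (716 with an unadjusted edgeR p under 0.05 for the latter), 24 and 406 and 1 and 27 in Müller glia, 0 and 10 in bipolar cells of the hRPGR blebs (450 unadjusted), and 0 and 17 in amacrine cells of the mScarlet blebs (525 unadjusted). In amacrine cells of the hRPGR blebs both called 0 (173 unadjusted). Between the animals they called 193 and 294 in cones and 231 and 591 in rods, and between the eyes 0 and 9 in rods (165 unadjusted). The cause of these changes was not tested. Each group is 2 libraries of 1 animal, and a class of 134 cones limits what can be seen of members at a few UMIs.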

Other observations

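SLIT3, a secreted ligand of the ROBO receptors, was higher in NHP1 than in the NHP2 libraries in both classes that carried it, and no test was fitted for horizontal cells. In horizontal cells it was at 52.1 and 85.8 CPM in NHP1, 9.33 and 3.59 CPM in the uninjected areas of NHP2, 15.7 and 18.5 CPM in the hRPGR blebs, and 12.6 and 8.33 CPM in the mScarlet blebs. In bipolar cells it was at 122 and 138 CPM in NHP1 and at 37.0 to 74.3 CPM in the 6 NHP2 libraries.

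NRP1, which T cells can also carry, was found in the T and NK cells of the mScarlet blebs at 19.6 and 26.6 CPM (27 and 62 UMIs in 242 and 435 cells). In the left hRPGR bleb it was at 9.81 CPM, from 2 UMIs. No NRP1 UMI was found in T and NK cells of the right hRPGR bleb or of the uninjected areas of NHP2, where 24 and 37 cells allow a level of up to 34.5 and 18.2 CPM by a limit of 3 UMIs. The mScarlet levels lie below the limit of the right uninjected library, while both are above that of the left one, and no test was fitted for these cells.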
